A study of Homo sapiens with 4 samples.

Results

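The basal and squamous epithelial genes described here are 32 genes, of 47251 rows in the tables, that were looked up by symbol. All 32 symbols were found, and none occurred on more than 1 row. They were picked with their levels in these same libraries already known, so every level and fold below is a description and none carries a test. RNA sequencing was done on HCT116, an established human colon cancer cell line, 48 hours after transfection. A plasmid encoding TTC22V1 (2 µg) was set against the control vector (2 µg), and a pool of 3 siRNAs against TTC22 (100 nM in all) was set against scramble siRNA (100 nM). Each of these 4 groups was 1 library, so no difference has a replicate error, and a difference between libraries cannot be told apart from an effect of the treatment.

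Stratified epithelia such as skin and oesophagus are built on a basal layer that makes the keratin pair KRT5 and KRT14 under the transcription factor TP63. Cells that leave that layer switch keratins, hold together through desmosomes and finally make a cornified envelope from involucrin and small proline-rich proteins. The epithelium of the colon is a simple one, whose main keratins are KRT8, KRT18, KRT19 and KRT20. Basal keratins are therefore not part of the usual colon programme, although cancers can acquire squamous genes.

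Levels are in FPKM, a unit inferred from the values, in which fragments are counted per gene length and per library size. A level of at least 1 FPKM was called high. Folds are log2 ratios after 1 FPKM was added to both levels, which understates the change of low genes. A gene was called measured in a comparison if its mean over the pair was at least 1 FPKM, and higher or lower if its log2 fold was at least 1 in size. Low values of genes with a single transcript peaked at a common step within each library, and that step corresponds to about 45600000 to 51500000 fragments per library. At such a depth 1 fragment on 2000 bases reads as 0.0097 to 0.011 FPKM.

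Of the 32 genes, 10 were high in the empty vector and TTC22 siRNA pool libraries and under 1 FPKM in the other pair, as were 0.719% of the 11126 genes high in any library. They were KRT5, KRT6A, KRT7, KRT14, KRT17, COL17A1, DSG3, SERPINB3, CLDN1 and PTHLH. TP63, TRIM29 and EFEMP1 were high in the empty vector library alone, as were 3.35% of those genes. PKP1, SERPINB4, LGALS7, ANXA8, TMPRSS11E, TM4SF1, GPNMB and TMEM45B, 8 genes, were high in the TTC22 siRNA pool library alone, as were 1.64%. None was high in the TTC22V1 plasmid library alone or in the scramble library alone. KRT6B, IVL, SPRR1A, SPRR1B and SPRR3 reached 1 FPKM in none of the libraries, and the remaining 6 followed other patterns that are given below.

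Upstream sequence from RefSeq (GRCh38.p14) was at hand for 19 of the 32 genes. The 5 windows shown are the 250 bases before the start of genes that stand for the 3 groupings: KRT5 and COL17A1 for both libraries, TP63 for the empty vector library, and the neighbouring paralogs SERPINB3 and SERPINB4, which differed in grouping. Starts are those of RefSeq. The KRT5 window reaches into the gene as GENCODE draws it, because the annotated starts differ, and the other 4 windows end at the GENCODE start. Capitals mark a TATAAA match in COL17A1 and, in the SERPINB pair, the bases at which the paralogs differ. No capitals appear in KRT5 and TP63, where no motif searched was found.
KRT5, chr12:52520395-52520644, minus strand: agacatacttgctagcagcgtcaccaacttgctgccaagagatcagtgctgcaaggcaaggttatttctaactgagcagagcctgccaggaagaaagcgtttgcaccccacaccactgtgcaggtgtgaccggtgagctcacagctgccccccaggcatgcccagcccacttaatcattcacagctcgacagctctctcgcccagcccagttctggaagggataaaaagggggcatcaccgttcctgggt
COL17A1, chr10:104085881-104086130, minus strand: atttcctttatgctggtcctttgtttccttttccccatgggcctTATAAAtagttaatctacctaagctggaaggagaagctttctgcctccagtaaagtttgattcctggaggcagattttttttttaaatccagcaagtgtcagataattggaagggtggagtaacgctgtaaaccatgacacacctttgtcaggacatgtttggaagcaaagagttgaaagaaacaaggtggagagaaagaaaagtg
TP63, chr3:189631139-189631388, plus strand: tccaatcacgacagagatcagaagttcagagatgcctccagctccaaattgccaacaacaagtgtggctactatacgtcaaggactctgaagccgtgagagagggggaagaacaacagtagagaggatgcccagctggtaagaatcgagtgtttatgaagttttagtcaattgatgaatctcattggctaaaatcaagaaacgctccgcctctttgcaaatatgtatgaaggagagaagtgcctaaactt
SERPINB3, chr18:63661894-63662143, minus strand: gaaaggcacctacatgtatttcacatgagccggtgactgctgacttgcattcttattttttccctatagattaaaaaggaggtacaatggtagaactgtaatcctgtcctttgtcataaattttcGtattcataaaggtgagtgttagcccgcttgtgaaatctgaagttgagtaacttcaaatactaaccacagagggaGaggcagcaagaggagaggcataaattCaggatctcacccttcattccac
SERPINB4, chr18:63644257-63644506, minus strand: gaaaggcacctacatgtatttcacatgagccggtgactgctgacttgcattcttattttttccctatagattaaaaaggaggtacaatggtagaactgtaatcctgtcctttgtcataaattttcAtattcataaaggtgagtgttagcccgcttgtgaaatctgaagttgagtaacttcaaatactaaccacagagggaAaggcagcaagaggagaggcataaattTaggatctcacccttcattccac
The SERPINB3 and SERPINB4 windows were identical at 247 of 250 bases, a share of 98.8%. They differed by G126A, G201A and C228T, with the SERPINB3 base first and positions counted from 1 at the 5′ end of the window. The TP63 window lies before its most upstream start, and its internal start is not shown.

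Both strands of the 250-base windows were searched for exact matches to 3 motifs. TATAAA, the core of the TATA box, was found in 5 of 19 windows (IVL, SPRR1A, SPRR3, TMPRSS11E and COL17A1), against 11.1% of all 27305 RefSeq windows of that length. TGANTCA, the letters bound by AP-1 factors, was found in 6 of 19 (IVL, SPRR1A, SPRR1B, SPRR3, GPNMB and LGALS7), against 6.60% of all windows. GCCNNNGGC, the letters bound by AP-2 factors, was found in 0 of 19, against 19.7% of all windows. Windows were at hand for 6 of the 10 genes high in both libraries. COL17A1 held TATAAA and none of the 6 held TGANTCA.

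TTC22, the targeted gene, whose protein carries tetratricopeptide repeats, stood at 24215 FPKM in the TTC22V1 plasmid library, against 4.46 FPKM in the empty vector library. It stood at 6.54 FPKM in the TTC22 siRNA pool library, against 10.7 FPKM in the scramble library. That log2 fold, −0.63, was within the size rule. By listed level the empty vector and siRNA pool libraries, in which 10 genes were high together, were the pair with the lowest TTC22. The tables were deposited separately, so this order describes levels only. With 1 library per group, a relation to TTC22 and RNA from other cells in those libraries cannot be told apart.

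The basal layer keratins came first in size. KRT14 (ENSG00000186847, chromosome 17, 41582279 to 41586895, minus strand), the type I keratin of basal cells, had 0.0663 FPKM with the TTC22V1 plasmid, against 41.7 FPKM with the empty vector. It had 22.7 FPKM with the TTC22 siRNA pool, against 0.111 FPKM with scramble siRNA. The vector and siRNA pool libraries were both high and the other pair lay near the level of a few fragments. Log2 folds were −5.33 for TTC22V1 plasmid over empty vector and 4.42 for TTC22 siRNA pool over scramble siRNA.

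KRT5 (ENSG00000186081, chromosome 12, 52514575 to 52520530, minus strand), its type II partner, had 0.0227 FPKM with the TTC22V1 plasmid, against 15.3 FPKM with the empty vector. It had 15.6 FPKM with the siRNA pool, against 0.00767 FPKM with scramble. By the step, and with the longest annotated transcript as length, these are about 2.62 fragments with the TTC22V1 plasmid, against 1626 with the empty vector, and 1760 with the siRNA pool, against 0.782 with scramble. KRT5 was therefore at or near the limit of detection in 2 libraries of the same cell line and well measured in the other 2. The log2 folds were −3.99 and 4.05.

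The third basal keratin did not follow this pair. KRT15 (ENSG00000171346, chromosome 17), which marks less differentiated basal cells, had 4.86 FPKM with the TTC22V1 plasmid, against 6.80 FPKM with the empty vector, and 21.9 FPKM with the siRNA pool, against 14.3 FPKM with scramble. It was high in all 4 libraries and lay higher in both siRNA libraries than in both plasmid libraries. Its log2 folds of −0.41 and 0.58 were within the size rule.

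Keratins of activated and suprabasal cells were split. KRT6A, which keratinocytes make when wounded, had 0.259 FPKM with the TTC22V1 plasmid, against 14.99 FPKM with the empty vector, and 14.9 FPKM with the siRNA pool, against 0.334 FPKM with scramble. KRT17, also induced on wounding, had 0.0412 FPKM with the TTC22V1 plasmid, against 6.74 FPKM with the empty vector, and 11.0 FPKM with the siRNA pool, against 0.0303 FPKM with scramble. Both thus repeated the arrangement of KRT5 and KRT14.

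KRT16, the usual type I partner of KRT6A, had 0.297 FPKM with the TTC22V1 plasmid, against 0.344 FPKM with the empty vector, and 1.11 FPKM with the siRNA pool, against 1.37 FPKM with scramble. KRT16 was thus low where KRT6A was high in the empty vector library, and it was slightly lower with the siRNA pool than with scramble. KRT6B had 0.0462 FPKM with the TTC22V1 plasmid, against 0.756 FPKM with the empty vector, and 0.0888 FPKM with the siRNA pool, against 0.131 FPKM with scramble. Its paralog KRT6C, which is no member, had 0.0101 FPKM with the TTC22V1 plasmid, against 0.638 FPKM with the empty vector, and 0.110 FPKM with the siRNA pool, against 0.0132 FPKM with scramble. KRT6A, KRT6B and KRT6C are close copies whose reads can be split by the counting, so the division among them is uncertain.

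KRT13, a keratin of the suprabasal layers of moist stratified epithelia, had 0.451 FPKM with the TTC22V1 plasmid, against 3.06 FPKM with the empty vector, and 4.72 FPKM with the siRNA pool, against 1.13 FPKM with scramble. It was higher in the vector and siRNA pool libraries but, unlike KRT5, was present in every library. KRT7, a keratin of simple and glandular epithelia, had 0.4996 FPKM with the TTC22V1 plasmid, against 5.27 FPKM with the empty vector, and 4.37 FPKM with the siRNA pool, against 0.725 FPKM with scramble. KRT7 overlaps KRT86 and the antisense gene KRT7-AS, and the strand setting of the counting is not given, so its level is less certain. The same limit holds for KRT13, KRT17, TP63, TRIM29, SERPINB3, IVL, PTHLH and TMEM45B, which also overlap a gene on the other strand.

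**Figure D1:**
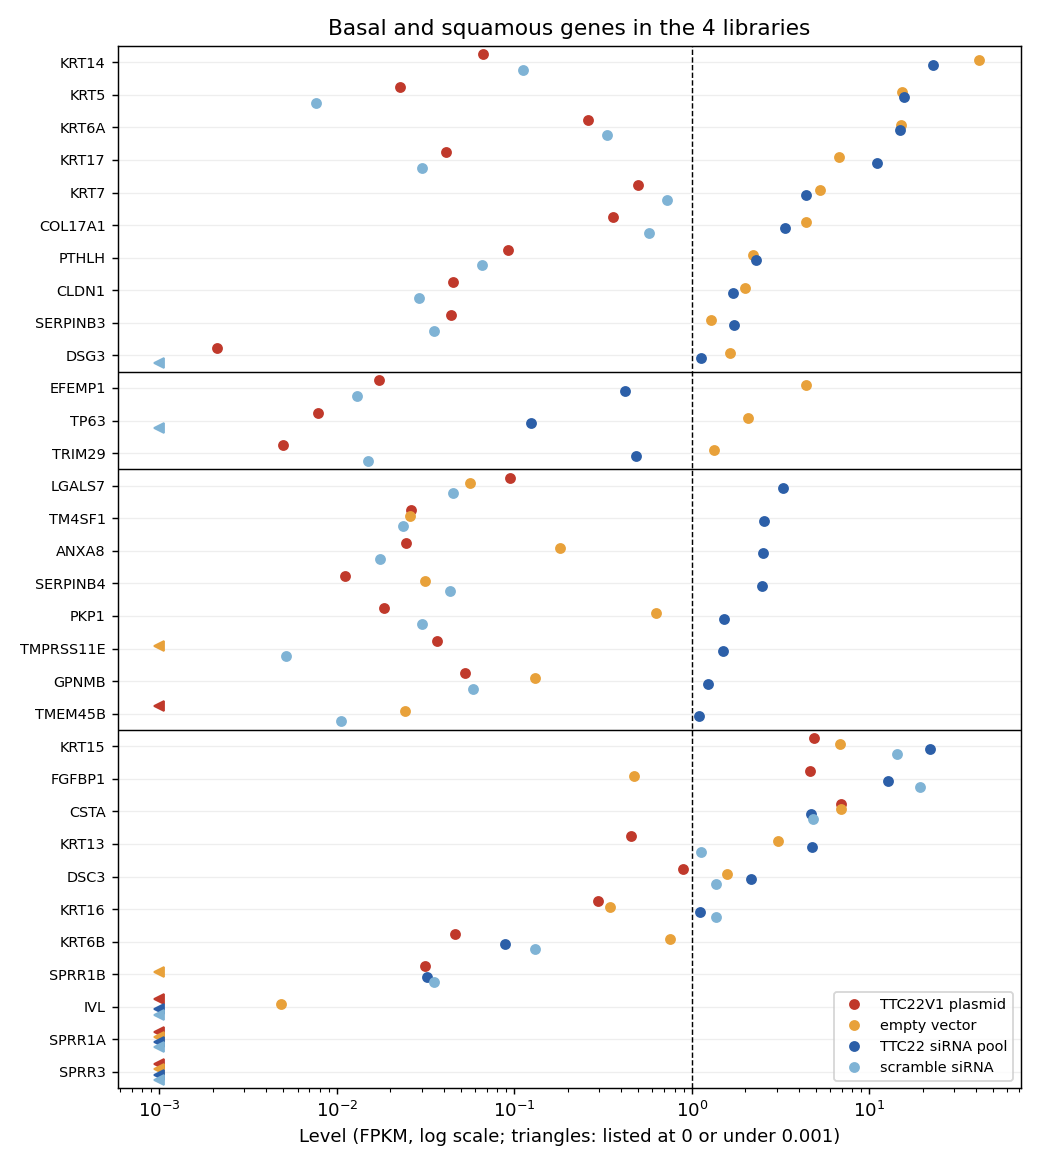
Level of each of the 32 genes in FPKM on a log axis, 1 point per library, with triangles for values of 0 or under 0.001 and a dashed line at 1 FPKM. Black lines separate, from the top, the 10 genes high in the empty vector and TTC22 siRNA pool libraries, the 3 high with the empty vector only, the 8 high with the siRNA pool only, and the others. KRT14 lies at 0.0663 FPKM with the TTC22V1 plasmid, against 41.7 FPKM with the empty vector.

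The transcription factor TP63 (ENSG00000073282, chromosome 3, 189631389 to 189897276, plus strand), which maintains basal cells, had 0.00785 FPKM with the TTC22V1 plasmid, against 2.08 FPKM with the empty vector. It had 0.124 FPKM with the siRNA pool, where KRT5 was as high as in the empty vector library, and was listed at 0 with scramble. TP63 was thus high in a single library, although its siRNA pool level lay above scramble. Its log2 fold in the plasmid comparison was −1.61, and it was not measured in the siRNA comparison. Of the 3 markers of basal cells, KRT5 and KRT14 were high in both libraries and TP63 in the empty vector library alone.

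TRIM29, a regulator abundant in basal and squamous cells, had 0.00496 FPKM with the TTC22V1 plasmid, against 1.33 FPKM with the empty vector, and 0.481 FPKM with the siRNA pool, against 0.0149 FPKM with scramble. TRIM29 was highest with the empty vector, and its siRNA pool level still lay above scramble. PTHLH, the parathyroid hormone-related peptide that squamous tumours secrete, had 0.0915 FPKM with the TTC22V1 plasmid, against 2.21 FPKM with the empty vector, and 2.29 FPKM with the siRNA pool, against 0.0660 FPKM with scramble. Its log2 folds were −1.55 and 1.62.

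FGFBP1, which carries fibroblast growth factors out of the matrix, went another way. It had 4.62 FPKM with the TTC22V1 plasmid, against 0.469 FPKM with the empty vector, and 12.7 FPKM with the siRNA pool, against 19.3 FPKM with scramble. It was the only one of the 15 measured genes that was higher with the TTC22V1 plasmid, by a log2 fold of 1.94, and it was lowest in the library where KRT14 was highest. FGFBP1 has 3 exons, and genes with under 4 exons were less reliable in these tables: of 528 such genes at 5 FPKM or more in a library, 11.6% were listed at 0 in another, against 0.0519% of 5781 genes with 4 or more exons.

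Among the junction genes, COL17A1, the transmembrane collagen of hemidesmosomes, had 0.358 FPKM with the TTC22V1 plasmid, against 4.42 FPKM with the empty vector, and 3.33 FPKM with the siRNA pool, against 0.570 FPKM with scramble. DSG3, the desmosomal cadherin of lower epidermal layers, had 0.00211 FPKM with the TTC22V1 plasmid, against 1.64 FPKM with the empty vector, and 1.13 FPKM with the siRNA pool, and was listed at 0 with scramble. CLDN1, a claudin of epidermal tight junctions, had 0.0453 FPKM with the TTC22V1 plasmid, against 2.00 FPKM with the empty vector, and 1.70 FPKM with the siRNA pool, against 0.0289 FPKM with scramble. In all of these the vector and siRNA pool libraries were high, and COL17A1 kept a clear level in the other pair.

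PKP1, the desmosomal plaque protein plakophilin 1, had 0.0183 FPKM with the TTC22V1 plasmid, against 0.625 FPKM with the empty vector, and 1.52 FPKM with the siRNA pool, against 0.0300 FPKM with scramble. It lay well above its pair partner in both the empty vector and siRNA pool libraries but crossed 1 FPKM in the siRNA pool library alone. DSC3, the desmocollin that pairs with DSG3, had 0.897 FPKM with the TTC22V1 plasmid, against 1.57 FPKM with the empty vector, and 2.16 FPKM with the siRNA pool, against 1.37 FPKM with scramble. DSC3 was present in every library, with log2 folds of −0.44 and 0.42.

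SERPINB3 and SERPINB4, neighbouring protease inhibitors on chromosome 18 known as squamous cell carcinoma antigens, parted in the empty vector library. SERPINB3 had 0.0439 FPKM with the TTC22V1 plasmid, against 1.27 FPKM with the empty vector, and 1.72 FPKM with the siRNA pool, against 0.0352 FPKM with scramble. SERPINB4 had 0.0111 FPKM with the TTC22V1 plasmid, against 0.0312 FPKM with the empty vector, and 2.47 FPKM with the siRNA pool, against 0.0436 FPKM with scramble. Their upstream windows, printed above, are nearly the same, and so are their transcripts, so reads can be split between them. CSTA, the protease inhibitor cystatin A of the cornified envelope, had 6.90 FPKM with the TTC22V1 plasmid, against 6.92 FPKM with the empty vector, and 4.67 FPKM with the siRNA pool, against 4.84 FPKM with scramble. CSTA was high everywhere and had the smallest log2 folds of the measured genes, 0.00 and −0.04.

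The cornified envelope genes IVL, SPRR1A, SPRR1B and SPRR3 were near or at 0. Involucrin (IVL) was listed at 0 in 3 libraries and at 0.00486 FPKM with the empty vector, and SPRR1A and SPRR3 were listed at 0 in all 4 libraries. SPRR1B was listed at 0 with the empty vector and lay between 0.0315 and 0.0354 FPKM in the other libraries, which the step puts at about 1 fragment each. All of these have 2 or 3 exons. Genes with under 4 exons were listed at 0 more often than others in these tables, so a 0 here does not show that the gene was silent. The envelope genes PPL and EVPL, periplakin and envoplakin, which are no members, were at 1 FPKM or more in all 4 libraries.

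The genes high with the siRNA pool alone were mostly near 0 elsewhere. LGALS7, the keratinocyte galectin 7, had 0.0944 FPKM with the TTC22V1 plasmid, against 0.0561 FPKM with the empty vector, and 3.25 FPKM with the siRNA pool, against 0.0450 FPKM with scramble. TM4SF1, a tetraspanin-like surface protein, had 0.0263 FPKM with the TTC22V1 plasmid, against 0.0259 FPKM with the empty vector, and 2.54 FPKM with the siRNA pool, against 0.0237 FPKM with scramble. TM4SF1 stood at 1 low level in all other libraries, and LGALS7 was under 0.1 FPKM in each of them, on a few fragments. The siRNA pool library alone was high, with log2 folds there of 2.02 for LGALS7 and 1.79 for TM4SF1.

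ANXA8, a calcium-binding annexin, had 0.0245 FPKM with the TTC22V1 plasmid, against 0.181 FPKM with the empty vector, and 2.51 FPKM with the siRNA pool, against 0.0176 FPKM with scramble. TMPRSS11E, an epithelial surface protease, had 0.0365 FPKM with the TTC22V1 plasmid, was listed at 0 with the empty vector, and had 1.4997 FPKM with the siRNA pool, against 0.00514 FPKM with scramble. GPNMB, a membrane glycoprotein first described in melanoma cells, had 0.0530 FPKM with the TTC22V1 plasmid, against 0.131 FPKM with the empty vector, and 1.24 FPKM with the siRNA pool, against 0.0588 FPKM with scramble. TMEM45B, a membrane protein, had 1.10 FPKM with the siRNA pool and 0 to 0.0241 FPKM in the other libraries. By the step TMEM45B had about 121 fragments in the siRNA pool library and at most 2.53 in any other. LGALS7 and ANXA8 have close copies, LGALS7B (0.394 to 0.584 FPKM) and ANXA8L1, so their own levels are uncertain. ANXA8L1 had 0.0212 FPKM with the TTC22V1 plasmid, against 0.337 FPKM with the empty vector. It had 0.657 FPKM with the siRNA pool, against 0.0101 FPKM with scramble. ANXA8 and ANXA8L1 thus also lay above the TTC22V1 plasmid level in the empty vector library, though under 1 FPKM.

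EFEMP1, the matrix protein fibulin 3, was high in the empty vector library alone, although its siRNA pool level also lay above scramble. It had 0.0172 FPKM with the TTC22V1 plasmid, against 4.41 FPKM with the empty vector, and 0.422 FPKM with the siRNA pool, against 0.0131 FPKM with scramble. Its log2 fold in the plasmid comparison was −2.41. In the siRNA comparison it was not measured.

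The siRNA pool and empty vector libraries were then set side by side for the genes high in both. The tables were deposited separately, so ratios across them describe levels only. The ratio of siRNA pool to empty vector ranged over the 10 genes between 0.544 (KRT14) and 1.64 (KRT17). Its median was 0.921, with quartiles of 0.773 and 1.03. The 70 non-members of the same class had a median of 0.875, with quartiles of 0.609 and 1.11. The quartiles of the 10 genes thus lay inside those of the 70 non-members. KRT5 had a ratio of 1.02, KRT6A 0.994 and PTHLH 1.04. Over the 8543 genes at 1 FPKM or more in all 4 libraries the median ratio was 0.809, with quartiles of 0.552 and 1.18. Single genes among the 8543 reached from 0.055 to 83.8. Of the genes high in the empty vector library alone, TP63 had a ratio of 0.0595, EFEMP1 0.0957 and TRIM29 0.361. Of those high in the siRNA pool library alone, the ratio was 2.44 for PKP1, 9.43 for GPNMB and 13.9 for ANXA8, and it went up to 98.0 for TM4SF1, with TMPRSS11E listed at 0 in the empty vector library. The grouping by 1 FPKM itself sets on which side of 1 these ratios lie.

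**Figure D2:**
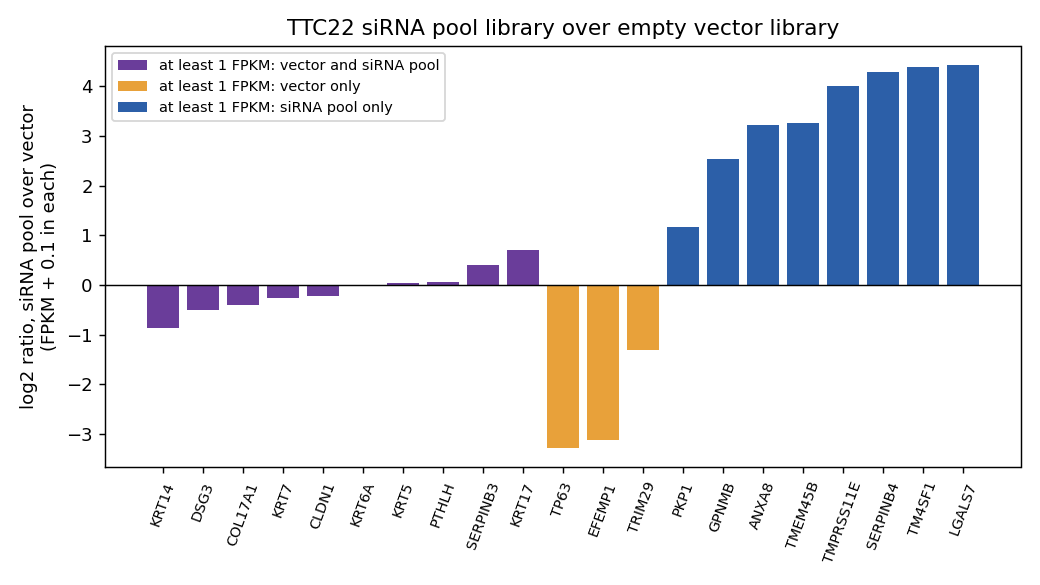
Log2 ratio of the TTC22 siRNA pool level over the empty vector level, after 0.1 FPKM was added to each, for the 21 genes high in either or both of these libraries only. The purple bars, for genes high in both, lie between −0.87 (KRT14) and 0.70 (KRT17). The orange bars (empty vector only) point down and the blue bars (siRNA pool only) point up. TP63, at 2.08 FPKM with the empty vector, and LGALS7, at 3.25 FPKM with the siRNA pool, lie at opposite ends.

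The plasmid comparison asked which genes differ with TTC22V1. Of the 32 genes 15 were measured, and 1 was higher and 11 lower, together 12 of 15, against 2.08% higher and 4.1% lower, or 6.18% in either direction, of all 10191 measured genes. The median log2 fold of the 15 was −1.61, against −0.21 over all measured genes, and 14 of the 15 lay below 0, CSTA by almost nothing and at 0.20 once the median of all genes was taken off. Relative to all genes the 15 therefore had a median of −1.41. DSG3, SERPINB3 and TRIM29, all high with the empty vector, were not measured because their pair means lay under 1 FPKM. As the genes were chosen on these libraries, and several passed the filter only through the empty vector library, nothing is read from these shares.

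The siRNA comparison asked which genes differ when TTC22 is targeted. Here 17 of the 32 genes were measured, and 12 were higher and 0 lower, against 2.57% higher and 2.19% lower, or 4.75% in either direction, of all 9744 measured genes. Their median log2 fold was 1.64, against −0.02 over all measured genes. The 3 measured genes below 0 were KRT16, CSTA and FGFBP1, none past the size rule. Several members passed the filter only through the siRNA pool library, which fixes their call in advance. KRT5, for example, had 15.6 FPKM there, against 0.00767 FPKM with scramble. Of the 12 genes measured in both comparisons, 8 were lower with the TTC22V1 plasmid and higher with the siRNA pool, a combination that 0.466% of 9226 genes showed. The opposite combination was found in 0 of the 12 and in 0.336% of all. As the genes were picked with these levels known, nothing is read from any share in this comparison or in the combination.

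**Figure D3:**
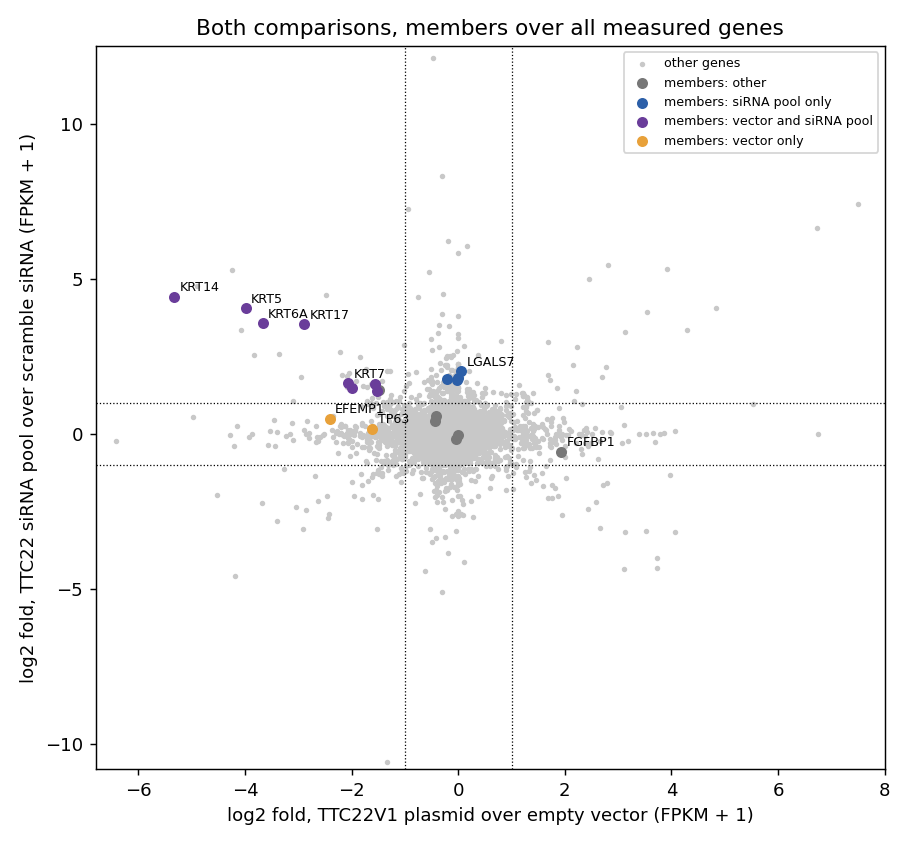
Log2 fold (FPKM + 1) of TTC22V1 plasmid over empty vector on the x axis and of TTC22 siRNA pool over scramble siRNA on the y axis, 1 point per gene measured in at least 1 comparison, without TTC22. Dotted lines mark log2 folds of 1 and −1. KRT14, KRT5, KRT6A and KRT17 lie far to the upper left, TP63 and EFEMP1 to the left, LGALS7 upwards and FGFBP1 to the right.

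The class high in the empty vector and siRNA pool libraries only held 80 of the 11126 genes at 1 FPKM or more in any library, or 0.719%, and 10 of the 27 members that reached that level. The mirrored class, high in the TTC22V1 plasmid and scramble libraries only, held 40 genes (0.36%) and no member. High in the empty vector library alone were 373 genes (3.35%) and 3 members, and in the siRNA pool library alone 182 genes (1.64%) and 8 members. The TTC22V1 plasmid library alone had 104 genes (0.935%) and the scramble library alone 111 (0.998%), with no member in either. All 4 libraries were high for 8543 genes (76.8%) and for KRT15 and CSTA. All but the TTC22V1 plasmid library were high for 251 genes (2.26%) and for KRT13 and DSC3, all but the empty vector library for 107 (0.962%) and for FGFBP1, and both siRNA libraries alone for 242 (2.18%) and for KRT16. No member was among the genes high in both plasmid libraries alone (4.66%), in all but the siRNA pool library (2.75%) or in all but the scramble library (1.54%). Nearest to the limit of 1 FPKM inside the first class was DSG3, with 1.13 FPKM in the siRNA pool library. Nearest outside it were KRT13 (1.13 FPKM) and DSC3 (1.37 FPKM) in the scramble library, and PKP1 (0.625 FPKM) in the empty vector library. Rescaling every library to the same sum without TTC22 left 46 genes in that class, with the same 10 members. All 10 members of the class have 4 or more exons, as have 55 of its 80 genes. Over all 11126 genes high in any library 9901 have 4 or more exons, and in the mirrored class 19 of 40. The class as a whole is thus richer in genes with few exons, which these tables list at 0 more often than others. The 10 members are not among those, and a part of exon number in the pattern was not tested.

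Genes outside the list shared the pattern. The 20 with the largest folds in both comparisons comprised 10 with under 4 exons and 10 with 4 or more. Of those with 4 or more, TGFBI, a matrix protein induced by TGF-beta, had 0.0473 FPKM with the TTC22V1 plasmid, against 3.34 FPKM with the empty vector, and 3.04 FPKM with the siRNA pool, against 0.0419 FPKM with scramble. IFI16, a DNA sensor, had 0.0283 FPKM with the TTC22V1 plasmid, against 1.96 FPKM with the empty vector, and 1.46 FPKM with the siRNA pool, against 0.0274 FPKM with scramble. Their ratios of siRNA pool to empty vector, 0.908 and 0.745, lay inside the range of the 10 members. DCP2, LCLAT1, ZNF184, PAIP2B, LYRM5, OSER1-AS1, NR6A1 and TMEM223 made up the rest with 4 or more exons, and each kept 0.217 FPKM or more in every library.

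Of those with under 4 exons, HOXA10, a homeobox gene with 2 exons, had 0.195 FPKM with the TTC22V1 plasmid, against 3.51 FPKM with the empty vector, and 2.81 FPKM with the siRNA pool, against 0.156 FPKM with scramble. HOXB7, of the same family, had 0.306 FPKM with the TTC22V1 plasmid, against 17.5 FPKM with the empty vector, and 6.74 FPKM with the siRNA pool, against 0.324 FPKM with scramble. PPP1R15B, SDHAF1, MEX3C, C2orf69, ZNF574, IFIT5 and FAM122A were also in this set. Of the genes named here, SDHAF1 and FAM122A were listed at 0 with the TTC22V1 plasmid and with scramble. Those values are uncertain because genes with few exons were listed at 0 more often than others. The low values of the rest were above 0 and are less certain as well, since they belong to the same class.

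A list of 50 other basal and squamous genes, which shares no gene with the 32, gave a mixed picture. In the plasmid comparison 17 were measured, 0 were higher and 3 lower, against 2.08% higher and 4.1% lower of all measured genes. Their median log2 fold was −0.41, against −0.21 over all measured genes. In the siRNA comparison 19 were measured, 2 were higher and 0 lower, against 2.57% higher and 2.19% lower of all. Their median there was −0.11, against −0.02 over all. S100A2, a calcium-binding protein of basal cells, had 3.36 FPKM with the TTC22V1 plasmid, against 14.7 FPKM with the empty vector, and 16.2 FPKM with the siRNA pool, against 2.10 FPKM with scramble. It was the single gene of this list past the size rule in both comparisons.

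SOX15, a transcription factor of basal cells, had 0.0179 FPKM with the TTC22V1 plasmid, against 0.953 FPKM with the empty vector, and 2.97 FPKM with the siRNA pool, against 0.0436 FPKM with scramble. BNC1, the basal cell factor basonuclin, and the serpins SERPINB2 and SERPINB13 were arranged likewise. They had 0 to 0.0401 FPKM with the TTC22V1 plasmid, against 0.585 to 0.748 FPKM with the empty vector, and 1.03 to 1.70 FPKM with the siRNA pool, against 0 to 0.0319 FPKM with scramble. None of these reached 1 FPKM in both libraries, and all were chosen for naming after their values were seen, apart from SOX15. SOX15 has 3 exons, so its low values are less certain.

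Other genes of the list were present in all 4 libraries. PERP, a desmosome-associated TP63 target, had 62.5 FPKM with the TTC22V1 plasmid, against 59.2 FPKM with the empty vector, and 80.1 FPKM with the siRNA pool, against 74.5 FPKM with scramble. CDH3, the P-cadherin of basal cells, had 12.9 FPKM with the TTC22V1 plasmid, against 18.4 FPKM with the empty vector, and 21.7 FPKM with the siRNA pool, against 20.2 FPKM with scramble. Both lay within the size rule, as did the plakophilin PKP3. Of the 50, 17 reached 1 FPKM in every library and 26 stayed under 0.5 FPKM in all. KRT10, a suprabasal keratin, was lower at 3.25 FPKM with the TTC22V1 plasmid, against 9.18 FPKM with the empty vector. The epidermal protease KLK5 was lower too, at 1.48 FPKM with the TTC22V1 plasmid, against 8.29 FPKM with the empty vector. KRT10 and KLK5 were within the size rule in the siRNA comparison.

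Colon epithelial genes, where measured, mostly lay within the size rule. Of 24 such genes 23 were in the tables used here. In the plasmid comparison 10 were measured (0 higher, 1 lower), against 2.08% higher and 4.1% lower of all measured genes. In the siRNA comparison 11 were measured (0 higher, 1 lower), against 2.57% higher and 2.19% lower of all. KRT8 had 291 FPKM with the TTC22V1 plasmid, against 357 FPKM with the empty vector, and 354 FPKM with the siRNA pool, against 300 FPKM with scramble. EPCAM, the epithelial adhesion molecule, had 115 FPKM with the TTC22V1 plasmid, against 102 FPKM with the empty vector, and 101 FPKM with the siRNA pool, against 132 FPKM with scramble. KRT8, KRT18, KRT19 and EPCAM were far above every member in all 4 libraries. CDX2, the intestinal transcription factor, had 1.63 FPKM with the TTC22V1 plasmid, against 4.29 FPKM with the empty vector, and 1.28 FPKM with the siRNA pool, against 2.80 FPKM with scramble. It was the gene called lower in the plasmid comparison, and it has 3 exons, a class less reliable in these tables. CLDN3, with 1 exon, was called lower in the siRNA comparison because it was listed at 0 in 3 libraries and at 4.60 FPKM with scramble. Several colon markers, among them VIL1, CDH17, LGR5, CDX1 and KRT20, stayed under 0.5 FPKM in every library.

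**Figure D4:**
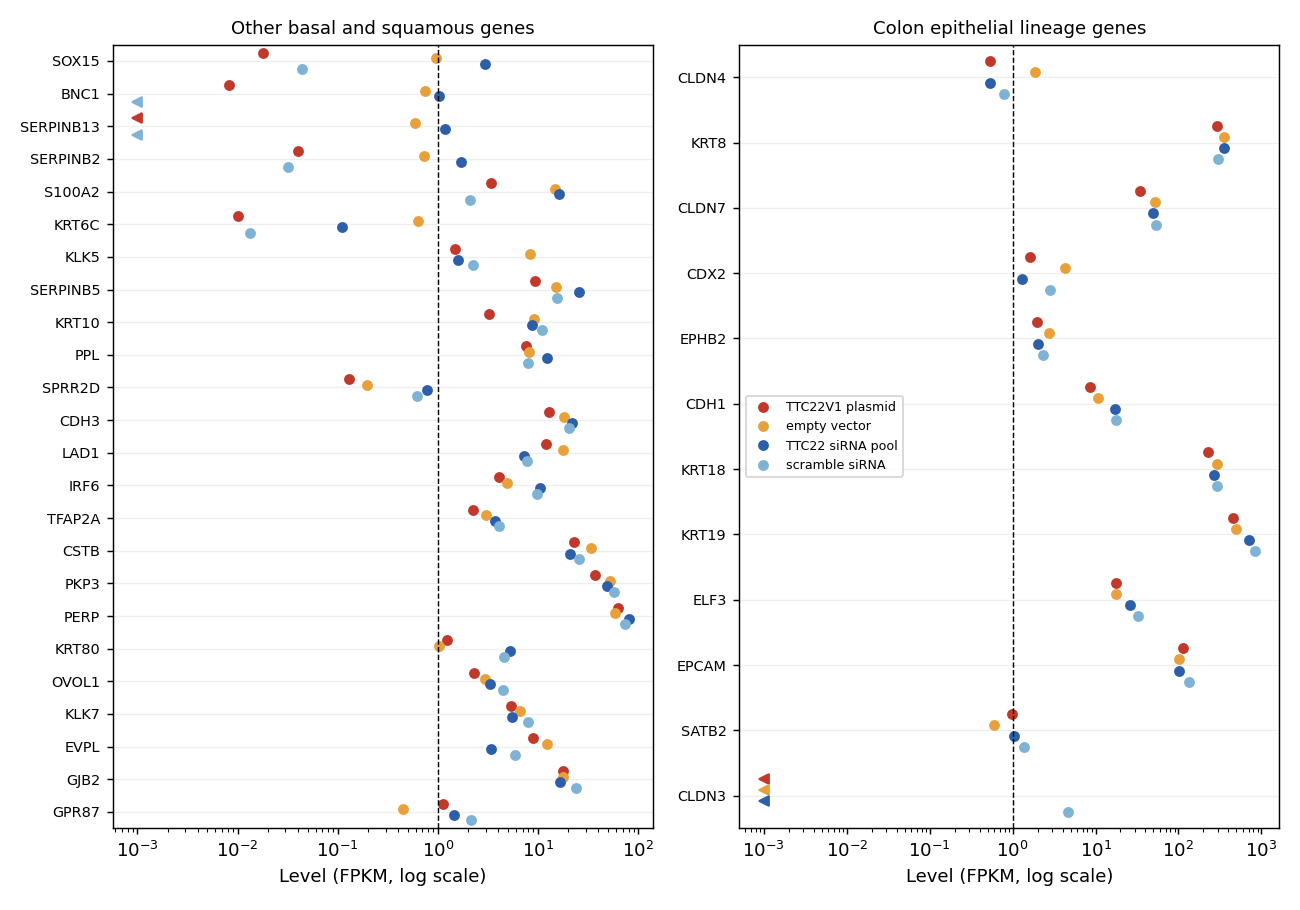
Level in FPKM, log axis, of the genes that reached 0.5 FPKM in a library, 1 point per library, for the 50 other basal and squamous genes (left) and 23 colon epithelial genes (right), with triangles for values of 0 or under 0.001. SOX15, BNC1, SERPINB13 and SERPINB2 at the top left are split between libraries as KRT5 is, while PERP and the colon genes KRT8 and EPCAM lie close together.

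Within the keratin family of 29 genes, 7 of 14 measured were lower with the TTC22V1 plasmid and 6 of 16 measured were higher with the siRNA pool, against 4.1% lower and 2.57% higher of all measured genes. The 6 were KRT5, KRT6A, KRT7, KRT13, KRT14 and KRT17, which are members picked with their values known and were also 6 of the 7 lower with the plasmid. The seventh was KRT10, so nothing is read from these shares. The summed level of the 32 members was 19.8 FPKM with the TTC22V1 plasmid, against 124 FPKM with the empty vector, and 143 FPKM with the siRNA pool, against 44.7 FPKM with scramble. For the 10 members high in both libraries the sum was 1.43 FPKM with the TTC22V1 plasmid, against 95.5 FPKM with the empty vector, and 78.8 FPKM with the siRNA pool, against 1.91 FPKM with scramble. In bulk RNA, more cells of a type and more RNA per cell cannot be told apart.

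Markers of other cell types were mostly low, apart from CD68, COL1A1 and PMEL, and their part in the result was not tested. COL1A1, a collagen of fibroblasts, had 1.82 to 2.99 FPKM over the 4 libraries, and the summed level of the 10 fibroblast markers was 2.59 FPKM with the TTC22V1 plasmid, against 3.88 FPKM with the empty vector, and 3.06 FPKM with the siRNA pool, against 2.83 FPKM with scramble. That of 6 endothelial markers was at most 0.156 FPKM, and that of 6 luminal breast and prostate markers at most 1.76 FPKM. Of 8 leukocyte markers only CD68 reached 1 FPKM, with 5.76 FPKM with the TTC22V1 plasmid, against 6.34 FPKM with the empty vector, and 37.2 FPKM with the siRNA pool, against 42.6 FPKM with scramble. PTPRC, the pan-leukocyte antigen, was at most 0.00276 FPKM and CD3E, of T cells, was listed at 0 throughout. The 6 melanocyte markers summed to 1.497 FPKM with the TTC22V1 plasmid, against 1.46 FPKM with the empty vector, and 0.938 FPKM with the siRNA pool, against 1.13 FPKM with scramble. TYR, the pigment enzyme, was listed at 0 in all libraries although GPNMB was high with the siRNA pool. PMEL, a melanosome protein, made up most of that sum, with 1.12 FPKM with the TTC22V1 plasmid, against 1.17 FPKM with the empty vector. In the plasmid comparison 1 fibroblast, 1 leukocyte and 1 melanocyte marker were measured, and in the siRNA comparison 1 fibroblast and 1 leukocyte marker, all within the size rule. The other markers of these lists were too low for the rule to apply.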

How the data were processed

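Paired-end poly-A libraries were made from HCT116 cells, per the labels' protocols. The submitters' processing notes name STAR, without a version, and hg38. The sources used here give neither the program behind the values nor its annotation or strand setting. The deposited tables, 1 for each pair, hold values taken as FPKM, scaled by the authors to gene length and library size; the unit is inferred, since no header names it. Depth was estimated from the peak of FPKM times length over genes with 1 transcript, with the lengths of GENCODE 44, so it is approximate and no counting interval is given. GENCODE 44 (hg38) held 91.6% of gene identifiers and all 32 members.

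The members and lists were chosen with earlier results of these data known. Log2 folds used a pseudocount of 1 FPKM, a pair mean of at least 1 FPKM and a size of at least 1, which is 2-fold, and no test, since each group had 1 library. Named were all members, TTC22, the 20 non-members with the largest smaller fold among those high in the empty vector and siRNA pool libraries only, leaving out clone-based and LINC names, and list genes past the size rule. Alternatives were a pseudocount of 0.1, median centring, other filters and sizes, and other limits for a high level. Scripts ran in Python 3.11.15 with pandas 2.3.3 and were tested on simulated data. Rows without a symbol (2844) were not named. A gene that the rule also named is not reported here.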

Additional observations from a re-analysis of the deposited data

How the results depend on the processing

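With 1 library per group no replicate could be left out, and no paired analysis was possible because the labels number no replicates. The 15 log2 folds of members in the plasmid comparison and the 17 in the siRNA comparison kept their calls with a pseudocount of 0.1 and after centring on the median of all genes. CSTA, which was within the size rule, had a log2 fold in the plasmid comparison that turned to 0.20 after centring. The 12 members past the size rule in the plasmid comparison became 3 with a mean of at least 5 FPKM (5 measured) and 6 with a 4-fold size. The 12 in the siRNA comparison became 19 with no filter on low values, 4 with a mean of at least 5 FPKM (6 measured) and 5 with a 4-fold size; fewer genes are tested under the higher mean. The median log2 fold of the measured members in the plasmid comparison, −1.61, was −3.59 with a pseudocount of 0.1, −1.41 after centring, −0.56 with no filter and −3.67 with a mean of at least 5 FPKM. In the siRNA comparison the median of 1.64 became 3.85, 1.66, 1.19 and 3.56 under the same settings. The count of 10 members high in the empty vector and siRNA pool libraries only was 9 at a limit of 0.5 FPKM, of which 8 were shared, and 8 at a limit of 2 FPKM, of which 7 were shared. It was 11 when the lower of these libraries had to be at least 4 times the higher of the others, which added PKP1. After all libraries were rescaled to the same sum without TTC22 the 10 members were the same, while the class over all genes held 46 genes, against 80. Depth limits the lowest values, which rest on single fragments.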

Other observations

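Genes outside the list also stood high in 1 of the libraries only. The following were chosen after their values were seen from the protein-coding non-members with 4 or more exons, of which 222 were high with the empty vector alone and 79 with the siRNA pool alone. With the empty vector, ANXA10, an annexin of gastric epithelium, had 1.79 FPKM, ALPP, the placental alkaline phosphatase, 1.38 FPKM, and ZFP42, a zinc finger protein of pluripotent cells, 1.45 FPKM, while none exceeded 0.0947 FPKM in another library. With the siRNA pool, RAB34, a small GTPase, had 2.62 FPKM, CLEC2B, a lectin-like receptor ligand, 1.89 FPKM, and RGS7, a regulator of G protein signalling, 1.09 FPKM, while none exceeded 0.0980 FPKM in another library. CYP1A1, the enzyme induced through the aryl hydrocarbon receptor, had 4.10 FPKM with the siRNA pool, against 0.0960 FPKM with scramble, and 0.335 FPKM with the TTC22V1 plasmid, against 0.589 FPKM with the empty vector.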
